A study of Rattus norvegicus with 22 samples.

Results

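The vascular endothelial growth factor (VEGF) family was followed from tongue tissue to oral squamous cell carcinoma (OSCC) in rats. Its members were chosen by gene name on the array: the ligands Vegfa, Vegfb, Vegfc, Figf and Pgf, the receptor tyrosine kinases Flt1, Kdr and Flt4, and the coreceptors Nrp1 and Nrp2. These are 10 of the 16065 genes with a symbol on the array, read by 15 probes. All 4 Vegfa probes were taken separately and the brightest probe was taken for each of the other 9 genes. Figf is an older name of Vegfd. The tissue came from 11 male F344 rats that drank water with 20 ppm of the carcinogen 4-nitroquinoline 1-oxide (4-NQO) over 10 weeks. Tongues were taken in weeks 23 to 26 from the first dose, at an age of about 33 weeks. Each rat gave 1 piece of histologically identified OSCC and 1 piece of adjacent phenotypically normal tongue, so the 22 one-colour arrays form 11 pairs. The sample titles call both pieces of each rat untreated, and the dose labels mark only the normal pieces as having no treatment. By the protocol both pieces came from the same carcinogen-treated rats, so no tissue of unexposed rats is among the groups. No transgene, deletion or drug was used.

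VEGF ligands are secreted dimers that bind receptors on the endothelium. VEGF-A drives the sprouting and leakiness of blood vessels mainly through Kdr (VEGFR-2), while Flt1 (VEGFR-1) binds VEGF-A, VEGF-B and placental growth factor (the product of Pgf) and can hold ligand away from Kdr. VEGF-C and VEGF-D act through Flt4 (VEGFR-3), chiefly on lymphatic vessels, and the neuropilins Nrp1 and Nrp2 bind some VEGF forms as well as class 3 semaphorins. Vegfa is a classic target of the hypoxia-inducible factors and is spliced into isoforms with and without a heparin-binding stretch.

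Because the result for Vegfa turned on which probe was read, 2 of its probes are shown. Each is a 60-base oligonucleotide of the array, written 5′ to 3′, and the capitals mark the whole codons of its single reading frame without a stop codon. In the rn4 positions of the array's annotation they lie on the plus strand at chr9:10528551-10528610 (probe 2) and chr9:10531972-10532031 (probe 3). Read in that frame, probe 2 matches the receptor-binding core of VEGF-A, and probe 3 matches the stretch for heparin and neuropilin binding that the shortest isoforms lack. This reading rests on the frame and on general knowledge of the protein, not on a transcript annotation, and a frame without a stop codon alone does not mark coding sequence.
Vegfa probe 2: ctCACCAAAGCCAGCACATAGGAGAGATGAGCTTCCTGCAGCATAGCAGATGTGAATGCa
Vegfa probe 3: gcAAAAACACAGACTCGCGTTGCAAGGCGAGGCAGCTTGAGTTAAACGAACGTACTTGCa
Probe 4, at chr9:10535933-10535992, lies farthest toward the 3′ end of the gene, and probe 1 lies on the 5′ side of probe 2. The annotation lists 3 transcripts for probe 1, 1 for probe 2 and 4 each for probes 3 and 4, so the set does not resolve single isoforms.

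Levels are log2 signals relative to each array's 75th percentile, so that 0 is the 75th percentile of all probes on that array. They compare tissues for 1 probe and not probes with each other. Differences are OSCC minus normal, fitted with limma with the rat as a term, and a probe passes at a Benjamini-Hochberg adjusted p below 0.05 over all 30367 probes. On this scale the median difference of all probes was -0.24, so each difference is also given relative to it where that matters. The 75th percentile signal was 236.8 to 654.9 on normal arrays and 338.7 to 1414 on OSCC arrays, and no slide held both tissues (3 slides of normal arrays and 4 of OSCC arrays). Scanning took 2 days: the first covered all 11 normal arrays and the OSCC arrays of animals 4 and 9, and the second covered the remaining 9 OSCC arrays. With the scan day as a term only 3 of the 30367 probes passed. The mean level of the squamous keratinocyte markers was 3.56 to 4.79 in normal and 1.97 to 4.46 in OSCC pieces. That of the skeletal muscle markers was 5.37 to 6.85 in normal and 1.39 to 7.55 in OSCC pieces. Both means lay above 0 in every piece, and the share of epithelium or muscle in a piece was not measured.

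Across the family, 4 of the 10 genes passed, counting Vegfa by any of its probes and the others by their brightest probe. At Vegfa 1 probe rose and 1 fell, while Vegfb, Pgf and Kdr fell. None of the 9 genes other than Vegfa passed upward at its brightest probe. Of all probes on the array, 44.0% passed in either direction, 16.2% upward and 27.9% downward, and 13.8% passed with a change of at least 2-fold. These shares count probes, while Vegfa could pass by any of 4, so the gene count does not compare directly with them. Of the 13 probes described here (4 of Vegfa and 9 of the other genes), a smaller share passed than of all probes. The share of these 13 that passed downward was near that of all probes. Vegfa probe 1 and Vegfb also reached 2-fold, a share near that of all probes. In bulk tissue, fewer cells of a type and less RNA per cell cannot be told apart.

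**Figure D1:**
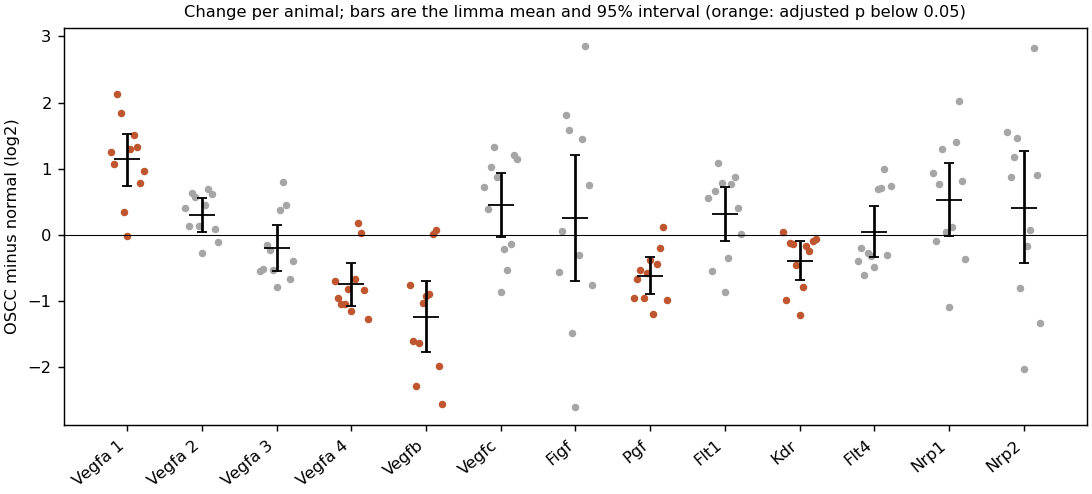
Change of each VEGF member (OSCC minus normal, log2; points are the 11 animals, bars the limma mean with its 95% interval; orange marks adjusted p below 0.05). Vegfa probes 1 to 4 run from 1.14 to -0.75, Vegfb has the lowest mean at -1.24, and Figf and Nrp2 spread over the widest range.

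Vegfa probe 1 rose in OSCC. Its level was -2.47 to -0.91 in normal tissue (median -1.91) and -1.24 to 0.07 in OSCC (median -0.61), and all 22 arrays were well above background. Of the 11 OSCC pieces, 9 lay above the highest normal piece, and the OSCC of animals 17 and 24 were the exceptions. The difference was 1.14 ± 0.18 (SE, n = 11 pairs), 2.2-fold, with a limma adjusted p of 0.00086, and it was higher in 10 of 11 pairs, the difference in animal 17 being -0.02. In the same-day pairs it was 1.25 (animal 4) and 1.07 (animal 9), although with the scan day as a term the limma adjusted p was 0.095. The difference no longer reached 2-fold with normexp (0.65, adjusted p = 0.025) or with array-median scaling (0.93, adjusted p = 0.0015).

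Vegfa probe 4, the brightest of the set, fell. The normal pieces spanned 2.82 to 3.57 (median 3.1) and the OSCC pieces 1.88 to 3.15 (median 2.18), and 9 of 11 OSCC pieces lay below the lowest normal piece. The other 2 were those of animals 22 and 24, whose differences were 0.18 and 0.03 while the remaining 9 ranged from -1.27 to -0.66. The fitted difference was -0.75 ± 0.15 (SE, n = 11 pairs; limma adjusted p = 0.0023), or -0.51 relative to the median of all probes. Both same-day pairs were lower in OSCC, by -0.70 and -0.96, and with the scan day as a term the limma adjusted p was 0.12.

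The 2 probes between them did not pass. Probe 2 ran from 0.35 to 1.2 in normal tissue and from 0.48 to 1.68 in OSCC, a difference of 0.30 ± 0.12 (SE, n = 11 pairs; limma adjusted p = 0.054). Probe 3 ran from -1.56 to -0.66 and from -1.79 to -0.76, a difference of -0.20 ± 0.16 (SE, n = 11 pairs; limma adjusted p = 0.31). The tissues overlapped for both. Probe 2 passed at 0.35 after quantile normalization (adjusted p = 0.018) or when scaled to the detected probes' 75th percentile, at 0.39 (adjusted p = 0.020), and without animal 17, at 0.36 (adjusted p = 0.025). It was 0.10 with array-median scaling (adjusted p = 0.50), 0.20 without animals 21, 22 and 24 (0.21) and 0.33 with normexp background correction (0.19). Probe 3 passed downward without animals 21, 22 and 24, at -0.48 (adjusted p = 0.0048), and with array-median scaling, at -0.40 (0.048).

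**Figure D2:**
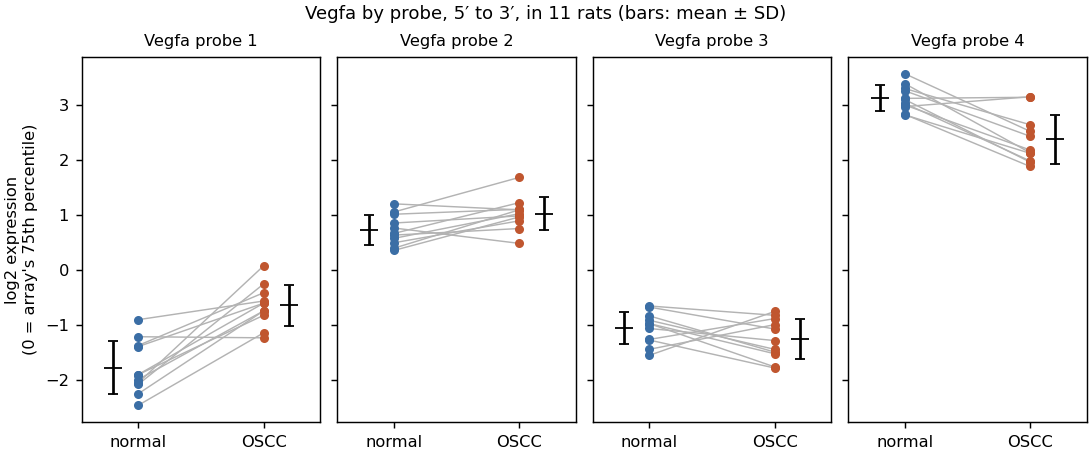
Level of the 4 Vegfa probes in 11 rats, ordered 5′ to 3′ (log2 relative to the array's 75th percentile; a line joins the pieces of 1 rat, bars are mean ± SD). The OSCC points move up at probe 1 and down at probe 4, with overlap of the tissues at probes 2 and 3.

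The change of Vegfa thus differed between its own probes, and this difference was tested on its own. Probe 1 exceeded probe 4 by 1.89 ± 0.21 (SE, n = 11 pairs), higher in all 11 pairs, with an exact two-sided sign-flip permutation p of 0.00098, the smallest that the sign patterns of 11 pairs can give, and 0.0027 after adjustment over the 19 comparisons of members made. Probe 1 exceeded probe 2 by 0.83 ± 0.11, probe 2 exceeded probe 3 by 0.50 ± 0.10 and probe 3 exceeded probe 4 by 0.55 ± 0.09 (SE; exact permutation, adjusted p = 0.0027, 0.0062 and 0.0027). In 10 of 11 pairs the change was lower at each next probe toward the 3′ end, and the exception was animal 22, where probe 3 (0.80) exceeded probe 2 (0.70). In the pairs of 1 scan day probe 1 exceeded probe 4 by 1.95 and 2.03. After normexp background correction the 3 differences between neighbouring probes no longer passed, at 0.32, 0.38 and 0.62 (exact permutation, adjusted p = 0.18, 0.18 and 0.08), whereas probe 1 exceeded probe 4 by 1.32 (adjusted p = 0.0062).

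A shift of the same sign was present across the array. Of 1172 genes with at least 2 mapped probes well above background on all arrays, 76.5% changed more upward at their most 5′ probe than at their most 3′ probe, with a median of 0.21 (quartiles 0.01 and 0.48). The median was above 0 in all 11 pairs, from 0.02 (animal 4) to 0.35, and it was 0.33 in animal 9. Among the 743 genes with these probes at least 1000 bases apart the median was 0.35. The Vegfa difference of 1.89 was reached or exceeded by 4 of the 1172 genes, Vegfa included. The part of this array-wide shift in the Vegfa result was not tested.

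**Figure D3:**
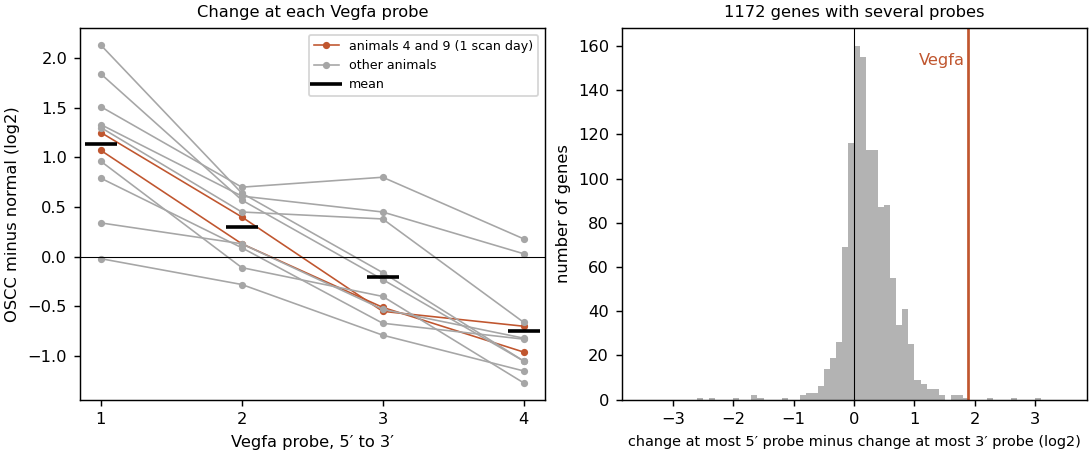
Left, change at each Vegfa probe (OSCC minus normal, log2) with a line for each of 11 animals, orange for the pairs of 1 scan day. Right, number of genes by the change at the most 5′ probe minus that at the most 3′ probe; the bulk of the 1172 genes lies above 0 (median 0.21), and Vegfa lies at 1.89.

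Pgf and Flt4 are the other members with several probes. For Pgf, the probe nearer the 3′ end (chr6:109215543-109215602, minus strand) fell, while the probe nearer the 5′ end (chr6:109220045-109220104) differed by -0.07 ± 0.18 (SE, n = 11 pairs; limma adjusted p = 0.74). For Flt4, the brightest probe (chr10:35111685-35111744, plus strand) differed by 0.05, and the probe on its 5′ side (chr10:35099258-35099317) passed upward at 0.82 ± 0.25 (SE, n = 11 pairs; limma adjusted p = 0.025). That second Flt4 probe was well above background on 0 of 11 normal and 9 of 11 OSCC arrays, which bounds its rise to at least 1.09-fold. In both genes the 5′-side probe had the higher value of the change, as in Vegfa. The difference was not tested in these 2 genes.

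Vegfb, a ligand of Flt1 abundant in heart and skeletal muscle, fell. Its level was 0.31 to 1.27 in normal tissue (median 0.93) and -1.32 to 1.34 in OSCC (median -0.45). Below the lowest normal piece lay 9 of the 11 OSCC pieces, while those of animals 22 and 24 stayed at 1.03 and 1.34. The difference was -1.24 ± 0.25 (SE, n = 11 pairs; limma adjusted p = 0.0025), a 2.35-fold fall. It was -0.76 and -1.61 in the same-day pairs, and with the scan day as a term the limma adjusted p was 0.17.

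The skeletal muscle markers also differed between the tissues. Of 14 muscle markers, 9 fell, 1 rose and 4 did not pass, with a median difference of -1.86 beside -0.24 over all probes. Among all probes of the array, 27.9% passed downward and 16.2% upward. Myh4 (fast myosin heavy chain, -4.47), the oxygen store Mb (-2.43) and the fast troponin Tnni2 (-2.01) fell, and Myh2 rose by 2.17. In animals 21, 22 and 24 the mean of the muscle markers was higher in OSCC, by 1.69, 1.12 and 1.38, while in the other 8 it was lower by -4.03 to -0.83. Among those 8 pairs the change of Vegfb and that of the muscle markers had a Pearson r of 0.73 (permutation p = 0.051, adjusted over 5 relations 0.26) and a Spearman rho of 0.74 (permutation p = 0.046, adjusted 0.23), and without the 2 farthest pairs r was 0.84. In the 6 of these pairs scanned on different days r was 0.69. The relation did not pass the adjustment, and the part of muscle content in the Vegfb result was not tested. Without animals 21, 22 and 24 the Vegfb difference was -1.60.

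**Figure D4:**
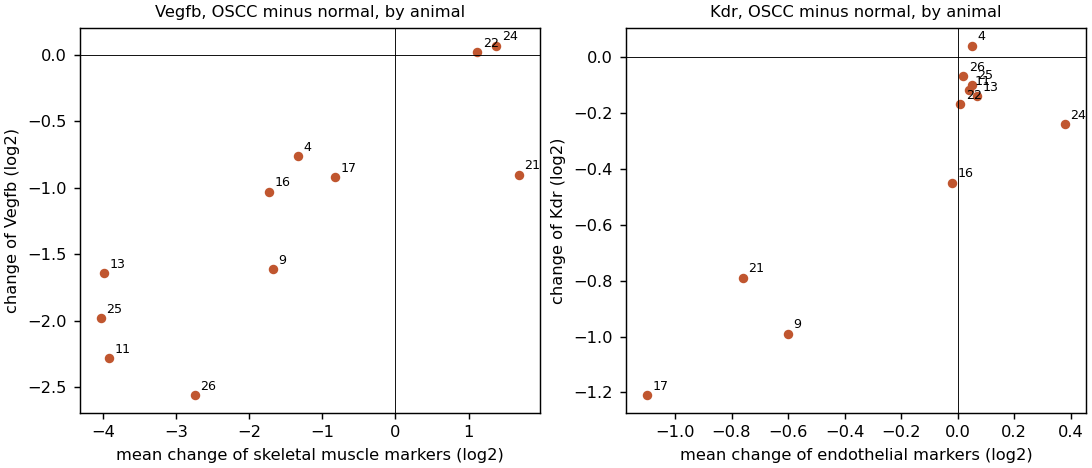
Left, change of Vegfb against the mean change of the skeletal muscle markers; right, change of Kdr against the mean change of the endothelial markers (all OSCC minus normal, log2, numbers are animals). Animals 22 and 24 have the highest Vegfb change and a positive muscle change, and animals 9, 17 and 21 have the lowest change of both Kdr and the endothelial markers.

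Pgf, which encodes placental growth factor, fell at its brightest probe. Normal pieces spanned -0.17 to 0.56 (median 0.07) and OSCC pieces -1.13 to 0.12 (median -0.60). It was below the lowest normal piece in 8 of 11 OSCC pieces, and lower in OSCC in 10 of 11 pairs, the exception being animal 25. The difference was -0.62 ± 0.13 (SE, n = 11 pairs; limma adjusted p = 0.0036). The mean of both Pgf probes gave -0.34 (adjusted p = 0.072), and the scan-day term gave -0.81 (adjusted p = 0.096).

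Vegfc and Figf, the lymphatic ligands, did not pass. Vegfc ran from -1.11 to -0.16 in normal tissue and from -1.39 to 1.07 in OSCC, and its OSCC spread was 2.37 times the normal one. In animals 4, 9, 11, 13, 16, 25 and 26 the OSCC piece lay above every normal piece, whereas animals 17, 21, 22 and 24 were lower in OSCC than in their own normal piece. The difference was 0.45 ± 0.22 (SE, n = 11 pairs; limma adjusted p = 0.11), and it was 0.58 without animal 17 (adjusted p = 0.035) and 0.73 without animals 21, 22 and 24 (adjusted p = 0.020), but 0.25 with array-median scaling (adjusted p = 0.35). Figf signals were well above background on 5 of the normal and 9 of the OSCC arrays, and its differences ran from -2.60 to 2.85 around 0.26 ± 0.44 (SE, n = 11 pairs; limma adjusted p = 0.64).

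The changes of the ligands were also compared with each other. The change of Vegfa at probe 4 exceeded that of Vegfb by 0.48 ± 0.16 and was lower than that of Vegfc, by -1.2 ± 0.32 (SE, n = 11 pairs; exact permutation, adjusted p = 0.022 and 0.015). Against Pgf it differed by -0.14 ± 0.15 (exact permutation, adjusted p = 0.41), and against Figf by -1.01 ± 0.43 (adjusted p = 0.067). The first of these lost its call after normexp background correction, at 0.42 (adjusted p = 0.15).

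**Figure D5:**
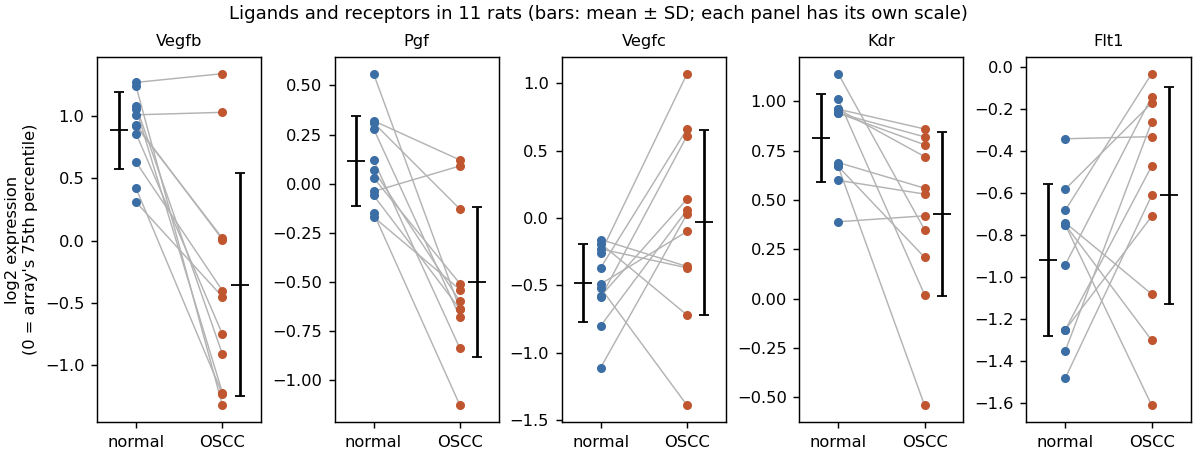
Level of 3 ligands and 2 receptors in 11 rats (log2 relative to the array's 75th percentile; a line joins the pieces of 1 rat, bars are mean ± SD). Vegfb and Pgf lie mostly lower in OSCC, the Vegfc points of OSCC lie on both sides of the normal range, and Kdr and Flt1 overlap between tissues.

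Kdr, the main signalling receptor for VEGF-A, fell by a small amount. Its probe has no rn4 position in the array's annotation. The level was 0.39 to 1.14 in normal tissue (median 0.94) and -0.54 to 0.86 in OSCC (median 0.53), and 4 of 11 OSCC pieces lay below the lowest normal piece. It was lower in OSCC in 10 of 11 pairs, by most in animals 17 (-1.21), 9 (-0.99) and 21 (-0.79), and the exception was animal 4 (0.04). The difference was -0.39 ± 0.14 (SE, n = 11 pairs; limma adjusted p = 0.040), -0.14 relative to the median of all probes. The call was lost without any 1 of animals 9, 11, 13, 16, 17, 21, 25 or 26 (adjusted p from 0.053 to 0.091), after quantile normalization (-0.35, adjusted p = 0.051), scaled to the detected probes' 75th percentile (-0.30, 0.095), with normexp (-0.20, 0.60), with the slide as a random block (-0.38, 0.11), in the pairs of different days (-0.36, 0.11), without animals 21, 22 and 24 (-0.38, 0.069) and with the scan day as a term (-0.48, 0.31).

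Flt1 and Flt4 did not pass. Flt1 ran from -1.48 to -0.34 in normal tissue and from -1.61 to -0.03 in OSCC; it was higher in 8 of 11 pairs, and animals 9, 17 and 21 were lower. Its difference was 0.31 ± 0.19 (SE, n = 11 pairs; limma adjusted p = 0.19). The brightest Flt4 probe ran from -2.74 to -1.99 and from -3.13 to -1.28, with a difference of 0.05 ± 0.18 (SE, n = 11 pairs; limma adjusted p = 0.81). Only in animals 21, 22, 24 and 26 was it higher in OSCC, from 0.70 to 1.00, and the sign of the mean turned under quantile normalization (-0.09) and array-median scaling (-0.15).

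The receptors and neuropilins were set against each other and against the endothelial markers. In which cells each of them changed was not tested. Of 17 endothelial markers on the array, none rose, 5 fell and 12 did not pass, with a median difference of -0.21, beside 27.9% of all probes passing downward and a median of -0.24, so the count is near that of the array. The adhesion molecule Pecam1 (-0.48), Vwf (-0.64) and Mmrn2 (-0.54) led those that fell. Over the 16 markers well above background on at least 11 arrays, the mean level was 0.15 to 0.57 in normal and -0.71 to 0.67 in OSCC pieces. Sox17, the marker left out of this mean, was well above background on no array. Kdr changed less upward than Flt1 in all 11 pairs, by -0.69 ± 0.12 (SE, n = 11 pairs; exact permutation, adjusted p = 0.0027). Against the mean of the endothelial markers, Kdr was lower in all 11 pairs by -0.22 ± 0.06 (exact permutation, adjusted p = 0.0027), Flt1 was higher in 10 of 11 by 0.48 ± 0.09 (adjusted p = 0.0046) and Nrp1 was higher in 10 of 11 by 0.70 ± 0.19 (adjusted p = 0.0093). After normexp the Kdr and Nrp1 differences were -0.10 (adjusted p = 0.29) and 0.37 (0.22), while Flt1 kept its call. Flt4 and Nrp2 did not differ detectably from the endothelial mean (0.22 ± 0.20 and 0.58 ± 0.36; exact permutation, adjusted p = 0.35 and 0.17).

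Animals 9, 17 and 21 had the lowest changes of both Kdr and the endothelial mean (-0.60, -1.10 and -0.76). They stood apart from the other 8 pairs, and within those 8 the Pearson r with the endothelial markers was -0.07 for Kdr and 0.31 for Flt1 (Spearman rho 0.14 and 0.29; permutation p = 0.79 and 0.37 for r and 0.75 and 0.50 for rho; each at least 0.55 after adjustment over 5 relations). Without the 2 farthest pairs r was 0.21 and 0.47, and in the 7 of these pairs scanned on different days -0.03 and 0.30. For the brightest Flt4 probe and the lymphatic markers r was -0.30 and Spearman rho -0.16 over 10 pairs (permutation p = 0.44 and 0.65, adjusted 0.55 and 0.75). Animal 17, left out here, stood apart in the lymphatic mean (-1.71). The higher Flt4 changes of animals 21, 22, 24 and 26 stayed in. Without the 2 farthest pairs r was -0.56, and in the 8 of different days -0.23. Of 6 lymphatic markers 1 rose and 5 did not pass (median -0.31), near the 16.2% of all probes passing upward. The riser was Pdpn (1.5), which is also made by squamous epithelium and fibroblasts. No array had the defining regulator Prox1 well above background.

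The neuropilins did not pass. Nrp1 ran from -3.59 to -1.85 in normal tissue and from -3.36 to -1.56 in OSCC, a difference of 0.53 ± 0.25 (SE, n = 11 pairs; limma adjusted p = 0.10); without animal 17, where it was -1.09, the difference was 0.69 (adjusted p = 0.028), whereas it was 0.27 with normexp (adjusted p = 0.65) and 0.29 without animals 21, 22 and 24 (0.34). Nrp2 was well above background on 1 of the normal and 3 of the OSCC arrays, so its differences, from -2.02 to 2.82, lay near the limit of the measurement. The changes of Nrp1 and Nrp2 differed by 0.12 ± 0.24 (SE; exact permutation, adjusted p = 0.62).

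Other partners of the neuropilins were followed as a list. Of 12 class 3 semaphorins, plexins and the adaptor Gipc1 on the array, none rose, 6 fell and 6 did not pass. Their median was -0.49, beside -0.24 over all probes, of which 27.9% passed downward. Of those that fell, Plxna4 had no array well above background, and Sema3d had 3 normal arrays and 1 OSCC array. Sema3b (-1.73, limma adjusted p = 0.0013) and Sema3f (-0.72, 0.011), secreted neuropilin ligands that can oppose VEGF, and the receptor Plxna2 (-0.92, 0.0072) had the smallest adjusted p. Each was lower in OSCC in 10 of 11 pairs. Over the 7 of these genes well above background on at least 11 arrays, the mean change was below 0 in all 11 pairs, from -0.87 to -0.08.

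Upstream of Vegfa, 2 of 8 regulators of hypoxia-inducible factor rose, beside 16.2% of all probes. Hif1a (1.64 ± 0.30, limma adjusted p = 0.0015) and its partner Arnt (0.94 ± 0.19, 0.0027) rose, each in 10 of 11 pairs (SE, n = 11 pairs), the hydroxylase Egln3 fell (-0.38), and 5 of them did not pass (median -0.18). Of 18 hypoxia-induced genes, 9 rose, 1 fell and 8 did not pass. Their median was 0.55, beside -0.24 over all probes, of which 16.2% passed upward. The oxidoreductase gene Ero1l (1.34), the collagen hydroxylase subunit P4ha1 (0.95) and the carbonic anhydrase Ca9 (1.58) had the smallest adjusted p upward, and the mitophagy gene Bnip3 fell (-1.16). The mean of the 18 was higher in OSCC in all 11 pairs, from 0.25 to 0.95. The 3′ Vegfa probe, used because it is the brightest, had a Pearson r of 0.53 with this mean over 9 pairs (permutation p = 0.14, adjusted 0.35). Spearman rho was 0.48 (permutation p = 0.19, adjusted 0.47). Animals 22 and 24, left out here, stood apart in the change of the probe itself (0.18 and 0.03), not in the mean of the 18 (0.25 and 0.32). The choice of pairs thus rests on a value that enters the correlation, which limits what r shows. Without the 2 farthest pairs r was 0.15, in the 7 of different days 0.62 and with normexp -0.04.

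For the next lists, the shares of all probes passing were 16.2% upward and 27.9% downward, and the counts of the angiopoietin and Tie and the Notch lists lie near or below these. Downstream and beside the receptors, 9 of 27 VEGF receptor signalling genes rose, 2 fell and 16 did not pass (median 0.06). Mapk3 (0.78), the small GTPase gene Rac1 (0.83) and the sphingosine kinase Sphk1 (1.06) rose in all 11 pairs, and Map2k2 (-0.67) and Mapkapk2 (-0.64), kinases of the MAPK cascades, fell. These kinases serve many receptors. Of 6 genes of the angiopoietin and Tie system 1 rose, 1 fell and 4 did not pass (median 0.09): Ptprb, the vascular phosphatase, fell by 0.64, and Angpt4 passed upward with no normal array and 4 OSCC arrays well above background, which gives no bound on its fold. Of 7 Notch genes of sprouting 1 rose, 1 fell and 5 did not pass (median -0.05): the tip-cell ligand Dll4 rose by 1.12 and the Notch target Hey2 fell by 0.98. Hey2 cleared the background limit in only 2 normal and 4 OSCC pieces, so the size of its fall rests on signals near that limit. Dll4 cleared it in 4 normal and 10 OSCC pieces, so its normal level is also poorly measured. Of 11 endogenous regulators of angiogenesis 5 rose, 1 fell and 5 did not pass (median 0.59). Dcn (1.16), Ctgf (0.90) and the inhibitor Thbs1 rose, the last by at least 2.18-fold since no normal array was well above background. Lect1 (chondromodulin) fell (-2.0). It cleared the background limit in 8 normal and 3 OSCC pieces, so its OSCC level is poorly measured.

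Markers of other cells also differed between the tissues, and their part in the VEGF results was not tested. The counts stand beside the 16.2% of all probes that passed upward and the 27.9% that passed downward. Of 11 macrophage markers 9 rose and 2 did not pass (median 1.58), led by Itgam (2.13), Cd14 (2.11) and Msr1, which rose at least 1.25-fold from normal arrays that were all below the background limit; the mean level was -1.02 to 0.36 in normal and 0.14 to 1.83 in OSCC pieces. Of 8 neutrophil markers 7 rose and 1 did not pass (median 2.77), led by S100a9 (4.78), S100a8 (4.51) and Cxcr2 (2.95), from -2.98 to -1.29 up to -2.07 to 2.86, and no array had Mpo well above background. Cxcr2 cleared the background limit in 3 normal and 9 OSCC pieces, so its normal level is poorly measured. Of 8 fibroblast markers 6 rose and 2 did not pass (median 1.27), led by Dcn, Lum (1.67) and Col1a2 (1.47), from 1.54 to 2.28 up to 1.30 to 4.52. Of 7 pericyte and smooth muscle markers 2 fell and 5 did not pass (median 0.21), Cspg4 by 0.56 and Myh11 by 1.36, with levels of 0.89 to 1.65 and 0.69 to 1.98. Of 8 squamous keratinocyte markers 1 rose (Dsg3, 1.07), 1 fell (Krt15, -2.54) and 6 did not pass (median -0.08). All 9 gland markers on the array rose (median 7.70), with Vegp1 (9.69), Vegp2 (9.41) and Lipf (8.73) well above background on 2 to 4 normal and on all 11 OSCC arrays; over the 5 used for the mean, levels ran from -5.04 to -1.16 in normal and from -1.36 to 10.08 in OSCC pieces.

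Finally, the genes whose within-pair changes lay closest to those of the family were listed as a description over the 11 pairs, among 8381 genes well above background on all arrays. The 11 pairs include those whose muscle and endothelial changes stood apart, and how far the correlations rest on them was not tested. Nearest to Vegfa probe 4 were the pyruvate dehydrogenase subunit Dlat, the fatty acid carrier Fabp4 and the adaptor subunit Ap1s2 (Pearson r 0.95 each). Nearest to Vegfb were Senp7, the mitochondrial epimerase Mcee and the mitochondrial anchor Akap1 (0.98 each). Nearest to Kdr were the endothelial adhesion gene Esam (0.94), Tuba1a (0.93) and Myct1 (0.92), and nearest to Flt1 were Dennd5a (0.94), the laminin chain Lamc1 (0.93) and the arterial connexin Gja4 (0.92).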

How the data were processed

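Signals of 22 Agilent Rat GE 4x44K v3 arrays (11 rats, OSCC and adjacent normal tongue) were analysed. The authors extracted them with Agilent Feature Extraction 9.5.3.1, per the file headers, and deposited spot intensities (background-subtracted processed signal, and mean and background signal) for each array; a table of the authors' own values, the linear ratio of each probe to its array's 75th percentile, was also deposited and, in log2, served as an alternative. Probe positions are those of the rn4 build, as in the file headers; the sequence and position of Vegfa probe 1 are not reported here. Spots of a probe were averaged in log2 without outlier spots (0.975% of spots) and reduced by the array's 75th percentile, following the study's scaling. limma 3.58.1 (R 4.3.3) fitted tissue and rat as terms over 30367 probes. The number of arrays limits the precision. Pairing comes from the rat number in the labels; deviations of same-rat arrays from their tissue means correlated by -0.21 to 0.24 (median -0.02). Changes of 2 members, or of a member and a marker list, were compared by an exact two-sided sign-flip permutation test over 11 pairs, and relations by 100000 permutations, within the larger cluster where the widest gap exceeded 30% of the range. The pairs left out stood apart in the list mean, except for Vegfa probe 4, where they stood apart in the change of the probe. A list is read by 1 probe a gene, the brightest; lists covered neuropilin partners, angiopoietin and Tie genes, receptor signalling, Notch, HIF regulators, hypoxia-induced genes, angiogenesis regulators and 9 cell type marker sets. The members and lists were chosen with earlier results of these data known. Named genes were all members, up to 3 per list and direction by adjusted p, and the 3 genes most correlated with 4 of the members. Alternatives covered normalization, background, filters, blocks, scan day, left-out rats and the methods' t-test. Only the lists' probes found on the array were counted, and current names came from the RefSeq gene table. The scripts were tested on simulated data.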

Additional observations from a re-analysis of the deposited data

How the results depend on the processing

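The number of members with a passing probe was 4 and of passing Vegfa probes 2 in the paired fit, and the fit without the replicate block gave the same numbers, 4 and 2. Leaving out 1 rat gave 3 to 5 members and 2 to 3 Vegfa probes. Both numbers were 0 with the scan day as a term, where 2 Vegfa probes and 1 other member had an unadjusted limma p below 0.05; the tissue difference then rests on the 2 pairs of 1 scan day. The methods' t-test with its 2-fold limit gave 2 and 1, since fewer probes reach that limit, and after Benjamini-Hochberg adjustment 4 and 3. Signs turned for differences that had not passed: Figf was -0.00 by quantile normalization, -0.25 with the scan day as a term, -0.15 without animals 21, 22 and 24 and -0.00 at the lowest without 1 rat (up to 0.54). Flt4 was -0.09 by quantile normalization, -0.15 with array-median scaling, -0.30 with the scan day as a term, -0.23 without animals 21, 22 and 24, and -0.04 to 0.12 without 1 rat; Nrp2 was -0.09 with normexp. The correlation of Vegfa probe 4 with the hypoxia-induced genes turned to -0.04 with normexp. The cause was not tested in any of these. The median difference of all probes moved from -0.24 to -0.03 with quantile normalization, -0.44 with the array median, -0.15 when scaled to the detected probes' 75th percentile and -0.08 with normexp. The median change at 5′ minus 3′ probes was 0.18 with normexp, an alternative chosen after seeing the data. Signals of Figf and Nrp2 near background limit what can be read of them.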
